A study of Rattus norvegicus with 138 samples.

Results

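The nucleus of the solitary tract (NTS) of hypertensive and normotensive female rats was compared at 16 wk of age, across all genes of the count table. The comparison held 9 of the 46 libraries from the NTS: 6 from spontaneously hypertensive rats (SHR) and 3 from Wistar-Kyoto (WKY) rats, 1 library per animal. The SHR (SHR/NHsd) and their normotensive controls (WKY/NHsd) were female rats of the same supplier, housed singly, and neither group received a treatment. By the study's staging, SHR of 16 wk are fully hypertensive. Bilateral punches of the NTS were cut from frozen brainstem sections with an atlas as guide and combined within a rat, so a library mixes neurons, glia and vessels of the dorsal vagal complex, and fewer cells of a type cannot be told apart from less RNA per cell.

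The NTS receives the first central synapse of the baroreceptor and chemoreceptor afferents. Its neurons use glutamate, GABA and catecholamines, and they set sympathetic outflow through projections to the caudal (CVLM) and rostral (RVLM) ventrolateral medulla, which were sampled from the same rats. SHR and WKY are inbred strains that differ at many loci, so a difference between them at a single age holds the inherited differences together with any that accompany high blood pressure, and the design cannot tell these apart.

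The 9 libraries held between 6416988 and 10801944 counts, and 13793 of 32883 genes passed the filter on low levels. The scaling factor (TMM) was 0.946 in WKY rat 1 and between 1.008 and 1.047 in the other 8 libraries. Catecholaminergic markers of the NTS were present in every library: Th ranged from 118 to 173 CPM (counts of a gene scaled to a common library size) in SHR and from 94.1 to 184 CPM in WKY, and Dbh from 61.0 to 92.7 CPM and from 43.5 to 99.1 CPM. The vesicular glutamate transporter Slc17a6 lay between 245 and 322 CPM in all 9. Of the transcription factors that mark visceral neurons of the hindbrain, Phox2a, Tlx3 and Lmx1b did not pass the filter (at most 8, 19 and 2 counts in a library). Of the cerebellar markers, Pcp2 had 0 counts and Gabra6 at most 1, while Calb1 and Neurod1, which were the only tested ones, summed to 139 to 223 CPM in SHR and 202 to 214 in WKY. The summed level of 14 of 17 marker sets for cell types and positions overlapped between the strains. The exceptions were red blood cells (195 to 412 CPM in SHR, 476 to 672 in WKY), pericytes and smooth muscle (55.3 to 73.6 against 41.2 to 53.7) and leukocytes other than microglia (5.82 to 12.7 against 2.93 to 5.03). Markers separate on their own were 2 of 3 tested for red blood cells, 1 of 5 (Tagln) for pericytes and smooth muscle and 1 of 2 for leukocytes. Over all tested genes this share was 6.48%.

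A gene was called when its adjusted p from edgeR's quasi-likelihood test (Benjamini-Hochberg over the 13793 genes) was at most 0.01 and its change was at least 2-fold. At 16 wk, 111 genes were called, which is 0.805% of those tested: 54 were higher in SHR (0.392%) and 57 lower (0.413%). In all 111 the 6 SHR values lay wholly above or wholly below the 3 WKY values, which held for 6.48% of the tested genes. Without WKY rat 1, 96 genes were called, 48 higher and 48 lower. The called rises had a median log2 fold change of 2.35 and the called falls of -1.65. With no minimum fold, 178 genes (1.29%) reached this adjusted p, so another 67 changed by less than 2-fold, 35 higher and 32 lower, and 239 genes (1.73%) had an adjusted p under 0.05. For 91.6% of the tested genes the fitted log2 fold change lay within 0.5 of 0, and the median over all genes was 0.00. The call rule sets a minimum of 2-fold, and with 3 WKY rats a gene that was not called may still differ.

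**Figure D1:**
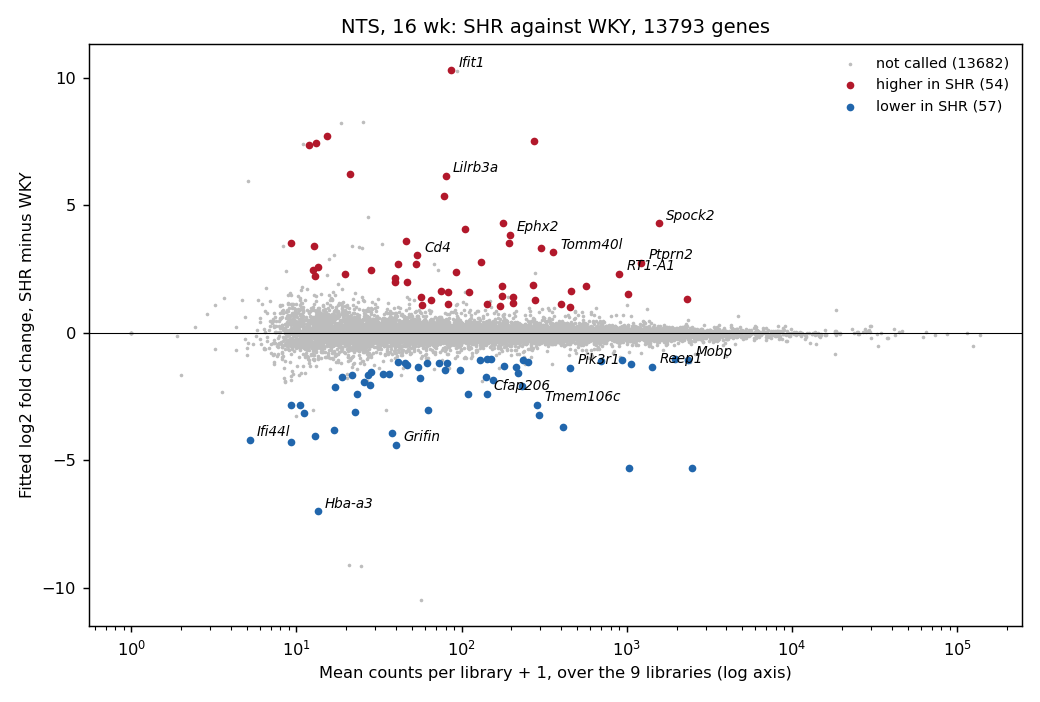
Fitted log2 fold change (SHR minus WKY) of 13793 genes in the NTS at 16 wk against the mean counts per library plus 1 on a log axis; red and blue points are the 54 higher and 57 lower called genes. The called genes spread over a wide range of levels, from Ifi44l and Hba-a3 at few counts to Mobp and Spock2 at high counts, while the grey points far from 0 are low or variable genes that did not pass the test.

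Several of the rises were in genes that were low in every WKY library. Spock2 codes for testican-2, a proteoglycan of the extracellular matrix. It measured 240 CPM at the lowest, 264 at the median and 281 at the highest in SHR, and 13.6, 11.9 and 14.4 CPM in the 3 WKY rats. Its log2 fold change was 4.29 ± 0.19 (SE; adjusted p = 7.08e-21), and every SHR library lay far above every WKY library. Ephx2, the soluble epoxide hydrolase that breaks down vasodilator epoxides of arachidonic acid and a candidate gene of the SHR strain, ran from 29.2 to 33.8 CPM in SHR (median 32.6) and was 3.02, 1.77 and 1.83 CPM in WKY. The difference was 3.85 ± 0.29 on the log2 scale (adjusted p = 2.36e-13). Ephx2 was the only called gene among the 10 tested candidate genes of the strain, where 0.805% of all tested genes were called. The median log2 fold change of these 10 was 0.11.

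Ptprn2 codes for phogrin, a membrane protein of dense-core secretory vesicles. It was 28.0, 30.2 and 27.9 CPM in WKY and from 120 to 219 CPM in SHR (median 199), a log2 fold change of 2.73 ± 0.36 (adjusted p = 8.05e-07). The groups did not overlap although SHR rat 4 was well below the other 5. The peroxisomal membrane protein Pxmp4 (31.4 CPM ± 1.23 [SD, n = 6] in SHR against 2.72 ± 0.578 [n = 3] in WKY) and Tomm40l, a relative of the mitochondrial import channel (56.9 ± 5.27 against 6.34 ± 0.378), were also raised in every SHR library. The other large rises among genes with at least 50 counts were in Tmem94, Pbld1, the lipase-family gene Pnpla1 and the nuclear import receptor Kpna6, with log2 fold changes of 3.32, 2.77, 2.69 and 1.88.

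Among the falls were the insulin receptor and a kinase subunit that acts after it. Insr, the insulin receptor, was 19.3, 16.1 and 19.9 CPM in WKY and 5.43 to 7.70 CPM (median 6.82) in SHR, and its log2 fold change was -1.47 ± 0.20 (adjusted p = 1.98e-06). Pik3r1, the p85 alpha regulatory subunit of the phosphoinositide 3-kinase that acts downstream of that receptor, was 84.9, 80.0 and 86.3 CPM in WKY against 28.7 to 42.8 CPM (median 30.6) in SHR, a change of -1.36 ± 0.14 (adjusted p = 1.81e-09). Both were lower in all 6 SHR than in any WKY rat. Arfgap1, which switches off the Golgi GTPase Arf1, fell by 1.57 on the log2 scale, and the cytoskeletal linker Epb41l1 fell by 2.09.

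The fall of Reep1, a shaper of the endoplasmic reticulum whose mutation causes spastic paraplegia in people, was measured at a high level: 237, 286 and 245 CPM in WKY and 95.3 to 107 CPM (median 104) in SHR. Its log2 fold change was -1.32 ± 0.20 (adjusted p = 8.80e-06). Retsat, the retinol saturase, was 188, 195 and 180 CPM in WKY and 71.0 to 89.8 CPM (median 78.1) in SHR, and fell by 1.24 on the log2 scale with the small SE of 0.08 (adjusted p = 1.24e-14). No SHR library reached the WKY range in either gene. Tmem106c, Serhl2, the glyoxalase-related Haghl, the actin-binding Aif1l, the phosphodiesterase Prune1 and the endonuclease Ybey fell by 2.83, 2.40, 1.83, 1.73, 1.33 and 1.34 on the same scale. Lrsam1, a ubiquitin ligase, was called at the edge (-1.77 ± 0.42, adjusted p = 0.00988), and its adjusted p rose to between 0.0125 and 0.0706 on leaving out any single rat other than SHR rat 5.

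Genes without an established symbol were among the largest differences too. AABR07064061.1 was 42.4 to 49.1 CPM (median 47.0) in SHR and 0.520, 0.186 and 0 CPM in WKY, and LOC100360940 was 11.5 to 14.9 CPM (median 13.7) against 0.416, 0.466 and 0 CPM. In the other direction, AABR07052523.1 was 768, 716 and 775 CPM in WKY and 16.1 to 22.8 CPM (median 18.5) in SHR. RGD1563294 was 317, 304 and 311 CPM against 6.66 to 8.81 CPM (median 7.87). Of the 111 called genes, 24 carried such a placeholder symbol, 10 higher and 14 lower. The reads were mapped to the genome of another strain, and how far sequence differences from it move the counts of such genes was not tested.

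**Figure D2:**
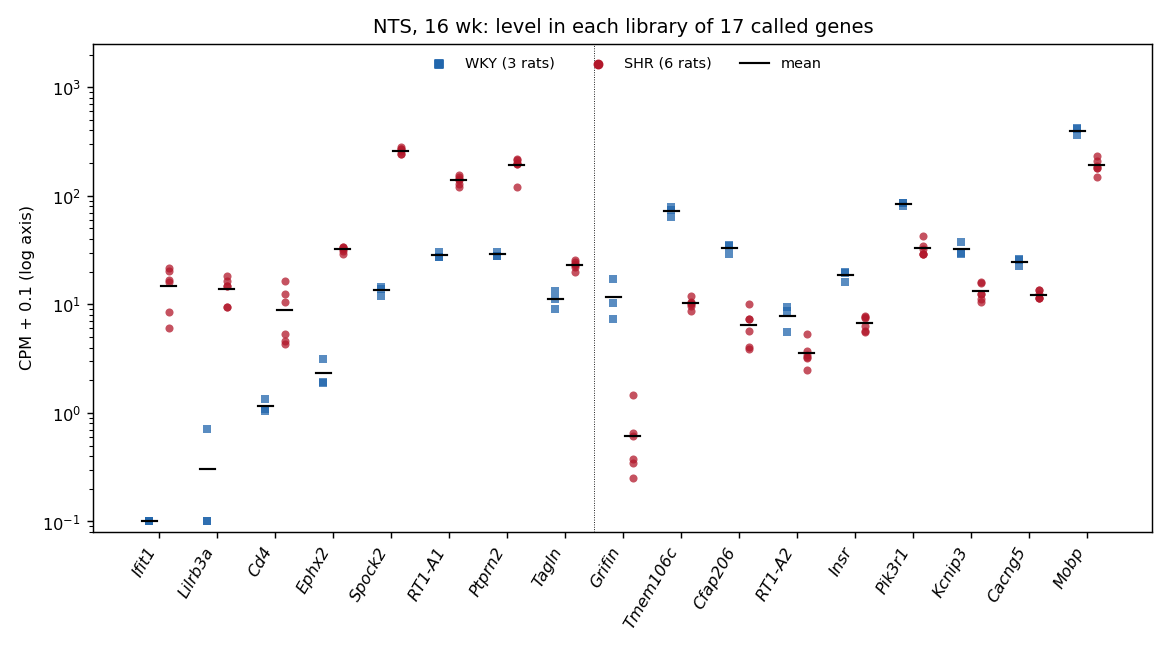
Level (CPM + 0.1, log axis) of 17 called genes in each NTS library at 16 wk; blue squares are the 3 WKY rats, red circles the 6 SHR, and black bars the group means. Genes left of the dotted line were higher and those right of it lower in SHR, and in none of the 17 do the squares and circles overlap.

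Genes of immune cells were among the rises. Lilrb3a, a paired immunoglobulin-like receptor that binds MHC class I, was 0, 0 and 0.611 CPM in WKY and 9.31 to 18 CPM (median 14.6) in SHR. Cd4, the co-receptor of helper T cells that rat macrophages also carry, was 1.25, 0.932 and 0.977 CPM in WKY and 4.18 to 16.1 CPM (median 7.81) in SHR, a log2 fold change of 3.04 ± 0.43 (adjusted p = 2.80e-06). Its adjusted p was 0.0213 with the 9 libraries fitted alone. Slc11a1, a metal transporter of macrophage lysosomes, rose by 2.38 ± 0.30 (adjusted p = 3.07e-07), and Zap70, a kinase of the T cell receptor, by 1.41 ± 0.25 (adjusted p = 1.64e-04). Zap70 was chosen for mention after its values were seen. These genes moved beside a leukocyte marker sum that did not overlap between strains, although 6 of its 8 markers did not pass the filter and the T cell marker Cd3e reached at most 3 counts in a library. The 2 leukocyte markers that were tested, Ptprc (0.98, adjusted p = 0.086) and Mrc1 (1.33, adjusted p = 0.48), were not called. The sum rests on these 2 alone, and microglia also carry Ptprc, so it cannot set other leukocytes apart from microglia. The summed microglial markers overlapped, at 289 to 362 CPM in SHR and 296 to 305 CPM in WKY. The part of cell numbers in these rises was not tested.

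MHC genes did not move in 1 direction. Of 24 tested members of the MHC and antigen presentation list, 4 rose (Lilrb3a, RT1-Db1, RT1-A1, Psmb8), 2 fell (RT1-N2, RT1-A2) and the median log2 fold change was 0.00, as over all genes, of which 0.392% rose and 0.413% fell by the same rule. RT1-A1 and RT1-A2 are classical class I genes, which display peptides of the cell's own proteins. RT1-A1 was 27, 30.4 and 27 CPM in WKY and 121 to 154 CPM (median 141) in SHR, a change of 2.31 ± 0.14 (adjusted p = 2.33e-16). RT1-A2 was 5.41, 8.57 and 9.29 CPM in WKY and 2.39 to 5.28 CPM (median 3.27) in SHR, a change of -1.17 ± 0.24 (adjusted p = 0.00183). The groups were separate in both genes, in opposite directions. RT1 genes are close copies of each other and differ between strains, so the counts of each are uncertain.

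Psmb8, an interferon-inducible subunit of the immunoproteasome, was 4.06, 4.94 and 7.09 CPM in WKY and 14.5 to 18.7 CPM (median 15.5) in SHR, with a log2 fold change of 1.59 ± 0.18 (adjusted p = 3.12e-08). The class II gene RT1-Db1, whose product presents peptides to helper T cells, rose by 2.48 ± 0.48 (adjusted p = 6.62e-04), but from only 11.6 counts per library, and its adjusted p was 0.0132 without WKY rat 3. The other class II genes RT1-Da (0.74 ± 0.56) and Cd74, the invariant chain (0.73 ± 0.45), were not called. The class I gene RT1-N2 fell by 1.72 ± 0.38 (adjusted p = 0.00423). Its adjusted p was 0.263 without WKY rat 3, and lay between 0.0102 and 0.0162 without SHR rats 1, 2 or 4 or WKY rat 1. RT1-A2 lost its call without WKY rat 2 or 3, with adjusted p of 0.0279 and 0.0439. With the 9 libraries fitted alone the adjusted p was 0.0308 for RT1-A2 and 0.0585 for RT1-N2. B2m, the light chain shared by class I molecules, was not called (-0.16 ± 0.18). Tapbp, the peptide-loading protein tapasin, was 36.5, 39.4 and 41.7 CPM in WKY and 67.6 to 73.3 CPM (median 69.3) in SHR, below the minimum fold with 0.84 ± 0.20 and an adjusted p of 0.0105.

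Of 25 tested complement genes, 1 fell and none rose by the call rule, by which 0.413% of all genes fell and 0.392% rose. The median log2 fold change of the list was 0.08. C4a was 3.75, 3.45 and 5.38 CPM in WKY and 0.827 to 2.41 CPM (median 1.18) in SHR (-1.64 ± 0.36, adjusted p = 0.00429). Its call depended on single rats: the adjusted p was 0.0811 without WKY rat 3 and 0.0122 to 0.0173 without SHR rats 1, 4 or 6 or WKY rat 1, and 0.0247 with the 9 libraries alone. C4b, its near-identical neighbour with which reads can be confused, had 1.04, 2.14 and 1.71 CPM in WKY and 0 to 0.918 CPM in SHR (-1.68 ± 0.69, adjusted p = 0.45). C3, the component on which all complement routes converge, ranged from 8.37 to 128 CPM in SHR (median 27.5) and was 6.14, 7.46 and 12.6 CPM in WKY. The groups overlapped, and the difference of 2.36 ± 0.65 had an adjusted p of 0.0483. C1s, the protease of the first component, fell by 0.64 ± 0.15 (adjusted p = 0.00702) with separate groups.

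The list of interferon-induced genes held both a large rise and a large fall. Interferons drive these genes through a complex of STAT and IRF factors that binds a promoter element with paired GAAA repeats. The letters GAAANNGAAA, on either strand and with overlaps counted, were found in the 250 bases before the start in 17 of 26 tested members with a RefSeq promoter (65.4%), against 2.47% of the 10159 tested genes with a promoter and 3.29% of all 27457 promoters. A promoter was available for 28 of the 54 called rises and 41 of the 57 called falls. No match was found in those 28 rises, and 3 of those 41 falls held one (7.32%). Ifit1, the called rise of the list, had no promoter entry and was not searched. A match describes the sequence only and is no proof of binding. The windows of Ifi44l, the called fall of the list, and of Ifit3, a relative of Ifit1, are shown as examples, 5′ to 3′ on the strand of the gene with the matches in capitals, from RefSeq on build GRCr8 (Ifi44l, chr2:243328473-243328722, plus strand; Ifit3, chr1:241527076-241527325, plus strand).
Ifi44l: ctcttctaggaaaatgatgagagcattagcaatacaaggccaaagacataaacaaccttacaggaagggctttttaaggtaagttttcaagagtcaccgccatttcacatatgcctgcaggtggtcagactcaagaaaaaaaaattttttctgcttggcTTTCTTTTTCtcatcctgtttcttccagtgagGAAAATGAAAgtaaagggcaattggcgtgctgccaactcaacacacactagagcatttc
Ifit3: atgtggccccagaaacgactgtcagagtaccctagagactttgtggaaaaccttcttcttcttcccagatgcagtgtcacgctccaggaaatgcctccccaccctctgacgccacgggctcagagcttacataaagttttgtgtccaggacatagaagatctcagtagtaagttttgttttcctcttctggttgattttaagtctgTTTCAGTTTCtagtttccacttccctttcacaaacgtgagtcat

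Ifit1, an antiviral protein that binds foreign RNA caps, had 0 counts in all 3 WKY rats and 5.92 to 21.3 CPM (median 16.3) in SHR. Against the level that 3 counts over the 3 WKY libraries would give, it was at least 141-fold higher in SHR (adjusted p = 4.84e-09). The remaining members lay mostly the other way. Ifi44l was 1.25, 1.12 and 1.34 CPM in WKY and 0 to 0.223 CPM in SHR, 35 counts against 3, a ratio of 21.6 with a 95% counting interval of 6.80 to 110 (adjusted p = 2.65e-04). In all, 29 of 34 tested members had a log2 fold change below 0 and 5 above, with a median of -0.38, against -0.002 over all genes. Ifit1 and Ifi44l were the called members, where 0.805% of all tested genes were called. The RNA sensor Ddx58 (-0.70 ± 0.16, adjusted p = 0.00955) and Parp9 (-0.75 ± 0.20, adjusted p = 0.0359) were below the minimum fold. Isg15, a ubiquitin-like modifier, was 9.99, 17.1 and 29.8 CPM in WKY and 6.21 to 13.7 CPM in SHR, and the groups overlapped (adjusted p = 0.14).

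The spread between rats was wide in this list. WKY rat 3 held the highest value of 19 of the 34 members. SHR rats 1 and 4 held the lowest of 12 and 8, and WKY rat 1 that of 7. Without WKY rat 3, the members below 0 numbered 23 and the median was -0.24. Without WKY rat 1, they numbered 30 and the median was -0.53. The same 2 SHR rats had the lowest Ifit1 of their group, 5.92 and 8.46 CPM, whereas the other 4 lay between 16.1 and 21.3 CPM. In the CVLM and RVLM of these rats Ifit1 was lowest in the same pair, at 4.97 and 2.95 CPM and at 4.66 and 4.40 CPM, with the other 4 between 11.3 and 19.3 CPM over both regions.

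**Figure D3:**
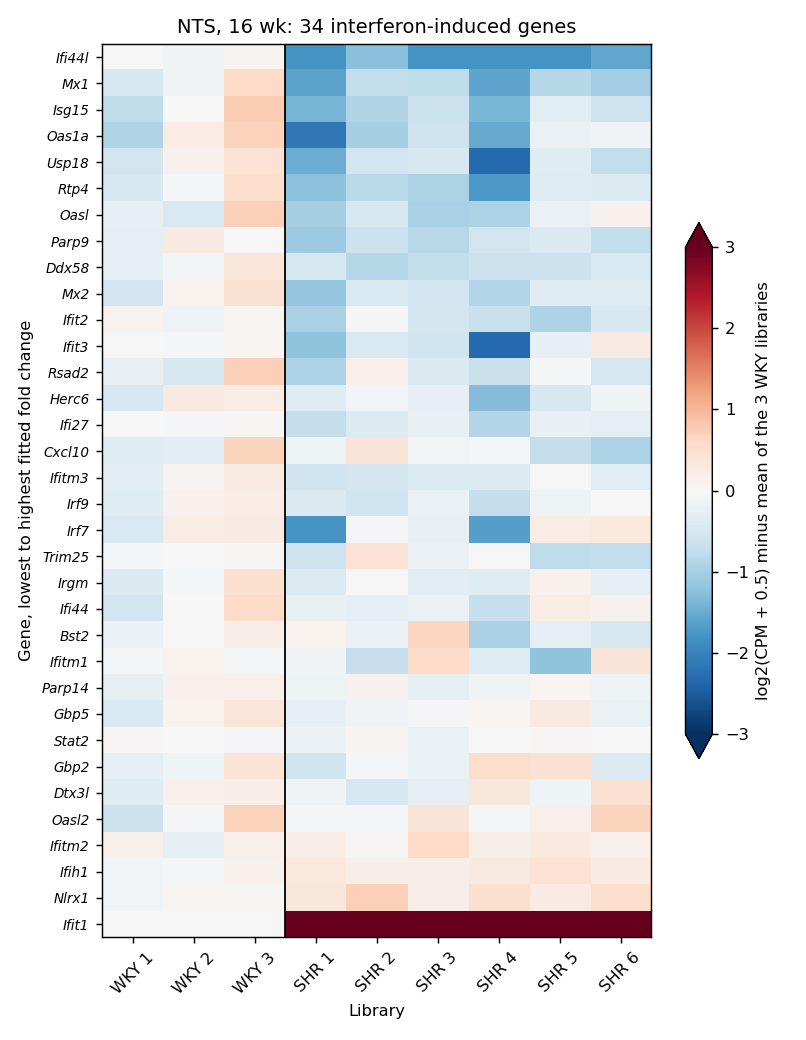
Level of the 34 tested interferon-induced genes in each of the 9 NTS libraries at 16 wk, as log2(CPM + 0.5) minus the mean of the 3 WKY libraries (blue lower, red higher, colours limited at 3 either way), ordered by fitted fold change. Ifit1 is red in all 6 SHR while most other rows are pale or blue there, bluest in SHR 1 and SHR 4, and WKY 3 is the reddest of the WKY columns.

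Among hemoglobin genes, Hba-a3 fell in SHR. Hba-a3, an alpha globin gene, had 111 counts in the 3 WKY rats (5, 3.08 and 3.67 CPM) and 1 count in the 6 SHR, a ratio of 205 with a 95% counting interval of 36.1 to 8180 (adjusted p = 1.05e-06). It was the only called member of 7 tested genes for oxygen binding, where 0.805% of all tested genes were called. Of these 7, 6 lay below 0, with a median log2 fold change of -0.85. Hba-a1 was 512, 367 and 380 CPM in WKY and 115 to 258 CPM (median 188) in SHR, and Hbb was 487, 347 and 374 against 143 to 307 CPM (median 225). The groups did not overlap in either, yet neither passed the test (adjusted p = 0.16 and 0.52). The erythroid enzyme Alas2 overlapped (1.79 to 2.95 CPM in SHR, 1.68 to 4.64 in WKY), and Slc4a1, the anion exchanger of red cells, reached at most 1 count. The alpha globin genes are near-identical copies, and red cells left in the vessels of a punch carry these transcripts: their part was not tested.

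Of 243 tested genes in the lists of transmitters, receptors and channels, 2 were called at 16 wk (0.823%, against 0.805% of all genes). No gene for catecholamine synthesis or transport (13 tested), adrenergic receptors (6), acetylcholine (14), the renin-angiotensin system (12), GABA and glycine (26), sodium channels (11), calcium channels and stores (25), neuropeptides (28) or their receptors (38) was called, and these lists had median log2 fold changes between -0.18 and 0.26. Glutamate transmission had 1 called fall of 28 and potassium and HCN channels 1 of 42. Th, the rate-limiting enzyme of catecholamine synthesis, differed by 0.03 ± 0.18. The noradrenaline transporter Slc6a2 (0.40 ± 0.39) and the acetylcholine enzyme Chat (0.30 ± 0.30) overlapped between strains. Pnmt, which turns noradrenaline into adrenaline, had the lowest value of its list (-0.77 ± 0.75). Mas1, the receptor of angiotensin 1-7, was the lowest member of the renin-angiotensin list at -0.24. Among the voltage-gated sodium channels the lowest value was that of Scn7a (-0.85) and the highest that of Scn8a (0.22). Among the calcium genes the inositol trisphosphate receptors Itpr3 (-0.59) and Itpr1 (0.50) marked the ends of the list.

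The called members were both accessory subunits. Kcnip3, a calcium-binding partner of A-type potassium channels, was 37.6, 29.6 and 28.8 CPM in WKY and 10.5 to 16.1 CPM (median 12.4) in SHR, and its log2 fold change was -1.29 ± 0.16 (adjusted p = 2.58e-07). Cacng5, an auxiliary subunit of AMPA receptors, was 22.4, 26.3 and 25.3 CPM in WKY and 11.3 to 13.5 CPM (median 11.9) in SHR, a change of -1.01 ± 0.22 (adjusted p = 0.0033). Both were separate between groups. Cacng5 sat at the fold limit: it fell by 0.96 to 0.99 without SHR rat 1, 2 or 5 or WKY rat 2 or 3, and without WKY rat 1 its adjusted p was 0.0101. Cacng2, the best known member of that family, had the highest value of the glutamate list at 0.23. The potassium channel subunit Kcne5 was 3.12, 1.86 and 1.34 CPM in WKY and 3.68 to 5.97 CPM (median 4.88) in SHR, separate but not called (1.18 ± 0.39, adjusted p = 0.17). Kcnip2 (0.51 ± 0.32) and the inward rectifier Kcnj14 (0.27 ± 0.33) overlapped.

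Abat, the transaminase that degrades GABA, was the only GABA or glycine gene with an adjusted p under 0.05. It was 195, 187 and 208 CPM in WKY and 116 to 155 CPM (median 136) in SHR, a fall of less than the minimum fold (-0.54 ± 0.12, adjusted p = 0.0070). The GABA-synthesising enzyme Gad1 (-0.10 ± 0.16), the glycine receptor subunits Glra2 (0.34 ± 0.18) and Glra3 (0.39, the highest of the list) and the glycine transporters Slc6a5 (0.09 ± 0.24) and Slc6a9 (0.08 ± 0.26) were not called. Calcrl, the shared receptor of calcitonin gene-related peptide and adrenomedullin, was 22.0, 22.7 and 18.4 CPM in WKY and 31.5 to 49.2 CPM (median 40.2) in SHR. Its rise of 0.95 ± 0.23 had an adjusted p of 0.0154, below the fold limit, and it was the only receptor of its list under 0.05. Its peptide Calca spread from 15.3 to 86.1 CPM within WKY and from 68.3 to 111 CPM within SHR (0.99 ± 0.74). Ramp1, which makes the receptor selective for that peptide, was at -0.28 ± 0.16.

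The other peptides gave no call. Hcrt, the orexin precursor, had the lowest value among 28 neuropeptides (-1.90 ± 0.96, adjusted p = 0.80), with 4.37, 2.61 and 10.1 CPM in WKY and 0.367 to 3.08 CPM in SHR, which overlapped. Crh was 2.08, 3.17 and 4.03 CPM in WKY against 1.12 to 2.05 CPM in SHR, narrowly separate (-0.89 ± 0.42, adjusted p = 0.73). Trh (-0.02 ± 0.46), the substance P precursor Tac1 (-0.47 ± 0.35), and the receptors Tacr3 (-0.70 ± 0.33), Hcrtr1 (-0.45 ± 0.21) and Npy2r (-0.09 ± 0.30) were not called, with Cckbr lowest among receptors at -0.81. The growth factor-binding gene Igfbp5 (0.10 ± 0.58) and the mitochondrial regulator of innate immunity Nlrx1 (0.44 ± 0.19) were not called either. Of 24 transmitter, channel and signalling genes taken from the study's text, all tested here, Kcnip3 and Cacng5 were called at this age, where 0.805% of all tested genes were called. The study described these genes across its regions and ages, in part at looser thresholds, so the calls here do not test its statements.

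**Figure D4:**
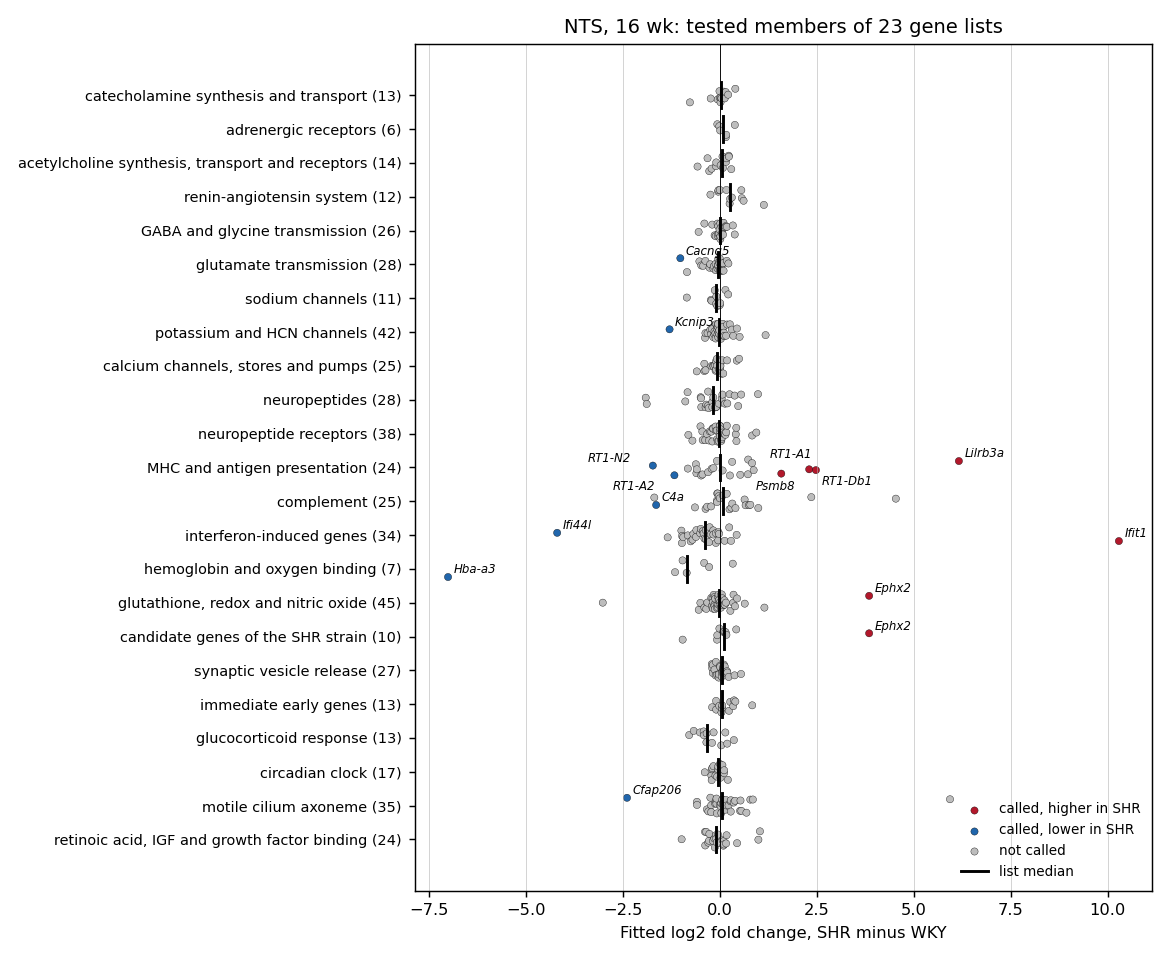
Fitted log2 fold change (SHR minus WKY) of each tested member of 23 gene lists in the NTS at 16 wk, with the number tested in brackets; red and blue points are called genes, grey points are not, and black bars are list medians. Most list medians lie near 0, and the lowest are those of the hemoglobin (-0.85), interferon (-0.38) and glucocorticoid (-0.33) lists. Besides Kcnip3 and Cacng5, the called members sit in the MHC, complement, interferon, hemoglobin, redox, candidate gene and cilium lists.

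Redox, cilium and other lists each held at most 1 call, where 0.805% of all tested genes were called. Of 45 tested genes for glutathione, redox and nitric oxide, Ephx2 was called, and the median was -0.03. Catalase (Cat, 0.45 ± 0.10, adjusted p = 0.00662) and the glutathione transferase Gstt3 (0.65 ± 0.13, adjusted p = 9.97e-04) were higher with separate groups but under 2-fold. Gstm3 was spread by single rats, at 0 CPM in 5 SHR and in WKY rat 1. Of 35 cilium genes, only Cfap206 was called, and the list median was 0.07. Rsph4a, the member with the highest fitted value, had 0 counts in WKY and in 4 SHR and 1.47 and 2.79 CPM in the other two, and did not pass the test. No gene was called for synaptic vesicle release (27 tested, median 0.05), immediate early response (13, 0.07), glucocorticoid response (13, -0.33), the circadian clock (17, -0.04) or retinoic acid and growth factor binding (24, -0.08).

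Among cell type markers, 2 were called, where 0.805% of all tested genes were. These were 1 of 7 tested markers of oligodendrocytes and 1 of 5 of pericytes and smooth muscle, and the other sets held none. Mobp, a structural protein of central myelin, was 409, 360 and 419 CPM in WKY and 147 to 234 CPM (median 185) in SHR (-1.06 ± 0.19, adjusted p = 3.21e-04), and the groups were separate. None of the other 6 oligodendrocyte markers was called, and Mbp, the major myelin protein, differed by -0.08 ± 0.20. The summed oligodendrocyte markers overlapped (20350 to 26510 CPM in SHR, 23000 to 26880 in WKY). Tagln, a smooth muscle actin-binding protein, was 13.2, 11 and 8.92 CPM in WKY and 19.9 to 25.7 CPM (median 23.1) in SHR (1.06 ± 0.22, adjusted p = 0.00287). It lost its call without WKY rat 2 (adjusted p = 0.0285) or WKY rat 3 (0.0706), and Mobp dropped under the fold limit without SHR rat 1 (-0.99). Acta2, the defining actin of smooth muscle, reached at most 3 counts in a library, and the other tested markers of that set were not called.

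The strain difference at 16 wk was also present at other ages. All 111 called genes had the same direction at 8, 10, 12 and 24 wk, and 79 were called at all 4, in other rats (1.22%, 1.25%, 1.21% and 0.986% of tested genes were called at these ages). The numbers called with the same direction were 95, 97, 95 and 96 of the 111. No gene passed an adjusted p of 0.05 for a strain difference at 16 wk that departed from the mean of the other ages by edgeR's quasi-likelihood test, and 321 genes (2.33%) had an unadjusted p under 0.05. DESeq2 gave 2 genes, both named after their values were seen. LOC103692716 had a log2 fold change of 0.66 at 16 wk, and 1.92, 14.66, 0.81 and 0.45 at 8, 10, 12 and 24 wk, with a mean of 0 CPM in WKY at 10 wk. Wdr77 was 20.6 CPM in SHR rat 1 and at most 0.384 CPM in the other 8 libraries of 16 wk.

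Of the called genes, 3 were called at no other age, and each leaned the same way there: Nccrp1, F11r and Mobp. Nccrp1 was 0.312, 0.559 and 0.855 CPM in WKY and 1.34 to 4.30 CPM (median 2.88) in SHR at 16 wk (2.32 ± 0.49, adjusted p = 0.00239), and its log2 fold changes were 1.09, 0.62, 1.26 and 0.71 at 8, 10, 12 and 24 wk. Its adjusted p was 0.0547 without WKY rat 1, 0.0289 without WKY rat 2 and 0.016 with the 9 libraries alone. F11r, the junctional adhesion molecule A, was 6.56, 4.57 and 4.03 CPM in WKY and 8.92 to 12.4 CPM (median 11.7) in SHR (1.15 ± 0.21, adjusted p = 3.09e-04), with 0.74, 0.86, 0.81 and 0.97 at the other ages and an adjusted p of 0.0140 without WKY rat 3. Mobp changed by -0.45, -0.82, -0.44 and -0.82 at those ages. For these genes the unadjusted p of the departure from other ages was 0.0106, 0.186 and 0.0584.

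**Figure D5:**
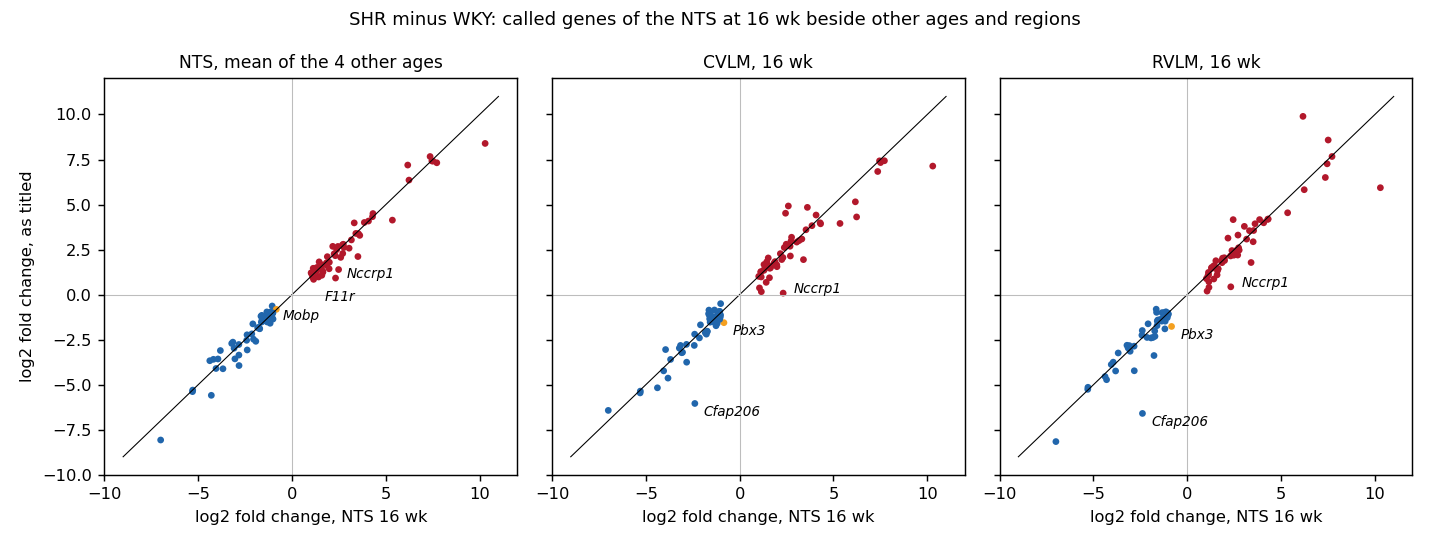
Log2 fold change (SHR minus WKY) of the 111 genes called in the NTS at 16 wk, and of Pbx3 in orange, against the mean over the 4 other ages in the NTS and against the CVLM and RVLM at 16 wk; the line marks equal values. The median distance from the line was 0.193, 0.245 and 0.191 on the log2 scale, and 9 of 111, 10 of 105 and 10 of 107 genes lay more than 1 from it, among them Cfap206, below the line in both ventrolateral regions, and Nccrp1, at 0.08 and 0.43 there.

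Most of the called genes also differed in the ventrolateral medulla of the same rats. Of the 111, 90 were called with the same direction in the CVLM, where 0.999% of tested genes were called, and 86 in the RVLM (0.91%). Of these, 81 were called in both, and 16 of the 111 in neither. With the rat as a block, the strain difference of the NTS departed from that of the CVLM in 1 gene of 14043 (0.00712%) at an adjusted p under 0.05 and from that of the RVLM in 2 (0.0142%), by edgeR's quasi-likelihood test. At an unadjusted p under 0.05 these were 212 (1.51%) and 221 genes (1.57%). Cfap206, a protein of the ciliary axoneme, was the gene in both. On a scale common to the 3 regions it was 32.0, 31.9 and 27.3 CPM in the NTS of WKY and 3.59 to 9.41 CPM (median 5.92) in the NTS of SHR. In the CVLM it was 7.67, 7.83 and 8.37 CPM in WKY and at most 2 counts in an SHR library, and in the RVLM 8.89, 7.12 and 11.5 CPM in WKY and at most 3 counts.

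Cfap206 was thus counted in every NTS library of SHR and was at or near 0 in their ventrolateral libraries. The strain difference was less negative in the NTS by 3.69 ± 0.63 on the log2 scale against the CVLM (adjusted p = 0.00175) and by 4.22 ± 0.65 against the RVLM (adjusted p = 8.05e-05), and these sizes rest on ventrolateral SHR libraries near 0 counts. With the 27 libraries of 16 wk fitted alone, the adjusted p was 0.0629 and 0.00774. In those fits, the adjusted p against the CVLM was 0.0184 without SHR rat 6 and between 0.0528 and 0.506 without any other single rat. Against the RVLM it was 0.0755 without WKY rat 1, 0.0980 without WKY rat 3 and at most 0.0434 without any other rat. Pbx3, a homeobox transcription factor of hindbrain neurons, was 75.5, 89.1 and 96.2 CPM in WKY and 44.9 to 54.0 CPM (median 48.2) in SHR in the NTS, and in the RVLM 81.5, 83.7 and 128 CPM against 24.8 to 34.2 CPM (median 28.2). The groups were separate in both regions, and the fall was smaller in the NTS by 0.91 ± 0.17 (adjusted p = 0.00389). That adjusted p was 0.00774 in the 27 libraries alone, and in these 0.0956 without WKY rat 1, 0.249 without WKY rat 3 and 0.0517 without SHR rat 3.

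A few called genes lie next to each other in the genome. Of the called genes, 86 could be placed in the RefSeq gene order on GRCr8, and 4 neighbouring pairs of tested genes were both called, of which 3 are described. Nr1i3, a nuclear receptor for foreign compounds, rose by 1.98 beside Tomm40l. Tstd1, a sulfurtransferase-like gene, was 14.4, 7.83 and 9.16 CPM in WKY and 0.256 to 1.23 CPM (median 0.577) in SHR, a fall of 3.95 next to the rise of F11r. RT1-A1 and RT1-A2 were the other pair in opposite directions. The pairs were picked by their calls and are given as a description.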

How the data were processed

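RNA from NTS punches was sequenced by the authors and aligned to the rat genome rn6 with STAR, and the authors deposited expected counts per gene from RSEM, with 5.02% of the NTS values not whole. The gene annotation is not given in the sources used here, nor whether the batch adjustment named in the methods (ComBat_seq) had been applied to the deposited table. Values were rounded to whole numbers. Genes whose regularised log2 level did not reach 3.5 were left out, which kept 13793 of 32883. The 46 NTS libraries (10 groups of strain and age) were fitted together with edgeR 4.0.16 (quasi-likelihood test, robust, TMM factors) in R 4.3.3, and SHR was set against WKY at 16 wk. Calls needed a Benjamini-Hochberg adjusted p no larger than 0.01 together with a log2 fold change of 1 or more in either direction. CPM are counts divided by the TMM-scaled library size and multiplied by 1e6. Libraries of 16 wk held 6416988 to 10801944 counts. Intervals and the floor of 3 counts cover counting error only. In the main fits the p-values rest on a spread between rats estimated over all 46 NTS libraries, of every age. For comparisons between regions it was estimated over all 138 libraries. With the 9 libraries of 16 wk fitted alone, 100 of the 111 genes were still called. No library was a duplicate of another (lowest chi-square per gene 5.17). For comparisons between regions, joint CPM of the NTS, CVLM and RVLM were used, with the rat as a block. Of the CVLM libraries, 2 of 8 wk have labels that conflict on age. They were in no group of 16 wk but shared the estimate of the spread, and were absent from the fit of the 27 libraries of 16 wk.

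Alternatives used DESeq2 1.42.0, sva 3.50.0 (2 surrogate variables), other filters and scalings, the 9 libraries alone, a replicate block and each rat left out. The test was checked on simulated data. Genes were named by a rule: the 14 largest rises and 14 largest falls among called genes with an established symbol whose mean count was 50 or more, the 2 largest of each among placeholder symbols, the called and the extreme members of each list, genes differing from other ages or regions, and genes the study named. Other list members, neighbouring genes, Retsat and Zap70 were named outside this rule, after their values were seen. The gene lists and members were chosen with earlier results of these data known. A few genes that the rule named are not reported here. No column lacked a sample.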

Additional observations from a re-analysis of the deposited data

Results flagged for a closer look

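Of 131 values examined in the 6 SHR libraries, 9 had a single rat far from the other 5 by Dixon's criterion, which chance gives in about 1 of 20 groups. In SHR rat 1, Pnmt was 12.99 CPM (0.641 to 4.91 in the others), Gad1 327.8 CPM (239 to 271), Tac1 198.2 CPM (78.8 to 104), Grifin 1.358 CPM (0.151 to 0.558) and Hba-a3 0.09697 CPM, with 0 in the others. In SHR rat 2, Chat was 129.8 CPM (79.8 to 97.2) and Gstm3 6.694 CPM, with 0 in the others. In SHR rat 4, Ptprn2 was lowest at 120.2 CPM (194 to 219) and the summed astrocyte markers were highest at 2760 CPM (2084 to 2329).

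The strain difference itself departed between regions of the same rats in 2 genes. Cfap206 differed by 3.69 on the log2 scale between the NTS and the CVLM and by 4.22 between the NTS and the RVLM. Pbx3 differed by 0.91 between the NTS and the RVLM.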

How the results depend on the processing

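The 111 calls were 110 with DESeq2 size factors in edgeR, 113 without a filter, 115 with edgeR's own filter, 111 with counts not rounded, 107 with the 9 libraries alone, 115 with 2 surrogate variables and 120 with DESeq2. Leaving out each rat gave 96 to 109 calls, 45 to 52 higher and 48 to 58 lower. A 4-fold minimum left 54 (31 higher, 23 lower), and an adjusted p under 0.05 with any fold gave 239 (116 higher, 123 lower). With the replicate block 73 were called, 36 higher and 37 lower, of which 72 were among the 111. Replicate numbers did not pair the rats: same-numbered rats correlated at 0.222, -0.062 and -0.118, and not every rat correlated best with its own number. Of 73 named called genes, 25 lost the call under at least 1 of 17 alternatives. DESeq2 gave 2 genes for 16 wk against other ages, where edgeR gave 0, also on leaving out each rat (0 to 0). For the NTS against the CVLM, the 27 libraries of 16 wk alone gave 0 genes, also with DESeq2 size factors (0), and 0 to 1 on leaving out each rat. Against the RVLM this range was 1 to 2. Log2 fold changes near 0 changed sign. On leaving out each rat, Mas1 ranged from -0.55 to 0.19, Trh from -0.29 to 0.10, Igfbp5 from -0.082 to 0.41, Th from -0.19 to 0.26, Kcnj14 from -0.0068 to 0.73 and Slc6a5 from -0.054 to 0.34. With the replicate block Mas1 was 0.29, Trh 0.33 and Slc6a9 -0.065. The causes were not tested. With 3 WKY rats, 1 library weighs heavily, and genes with few counts carry wide errors (median SE over all genes 0.212).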

Other observations

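The Y-linked helicase gene Ddx3y, which was singled out after its values were seen, was called in these female rats, with 71 counts over the 6 SHR and 3 over the 3 WKY libraries, a ratio of 12.8 with a 95% counting interval of 4.21 to 63.6 (adjusted p = 0.0068). It lost its call in 8 of 17 alternatives: the adjusted p was 0.151 with the replicate block, 0.0106 without a filter, 0.0573, 0.075 and 0.0446 without WKY rats 1, 2 and 3, and 0.0136, 0.0107 and 0.0173 without SHR rats 2, 3 and 6. AC127140.1 had 180 counts in SHR and 1 in WKY, a ratio of 97.4 with an interval of 17.3 to 3870. RGD1309362, LOC100910934 and AABR07007730.1 had 0 counts in all WKY libraries and were at least 18.5-fold, 19.5-fold and 23.5-fold higher in SHR, against 3 counts over the WKY group.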
